A study of Mus musculus with 4 samples.

Results

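The nuclear-encoded subunits of respiratory complexes II to V were examined in myeloid-derived suppressor cells (MDSCs) treated with EGCG, a green tea catechin. The members were the protein-coding genes named Sdha to Sdhd, Cyc1 or Cycs, or with a symbol beginning with Uqcr, Cox4 to Cox8 or Atp5. This gave 48 of the 53465 genes listed. Complex II had 4 members, complex III had 9, complex IV had 18 and complex V had 16, and Cycs encodes cytochrome c, the carrier between complexes III and IV. The rule used the symbols and the protein-coding label alone.

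The cells were taken from the spleens of BALB/c mice bearing 4T1 tumors, a transplantable mammary carcinoma, with beads against Gr-1, an epitope of Ly-6G and Ly-6C on granulocytic and monocytic cells. Both groups carried the tumor. For 6 h the cells were cultured with 5 μg/mL EGCG or in control medium alone, and there were 2 libraries in each group. The labels place the collection on day 21 after tumor injection, the study's methods give an earlier day and describe the mice as male and 6 weeks old, and neither states if replicate libraries stem from separate mice or only from separate wells. The p-values therefore measure the spread between these libraries, which may be technical.

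The respiratory chain passes electrons to oxygen and uses the energy to pump protons across the inner mitochondrial membrane, and complex V (ATP synthase) lets the protons flow back to make ATP. Complex II (succinate dehydrogenase) is encoded wholly in the nucleus and also works in the citric acid cycle, whereas complexes III, IV and V each contain subunits encoded by mitochondrial DNA. Neutrophil-like cells, which make up much of the Gr-1 population, are known for few mitochondria and for reliance on glycolysis.

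The levels of the nuclear subunits were slightly higher in the EGCG libraries in all of complexes II to V, and no single subunit passed the test. Of the 44 members with enough counts to be tested, 36 were higher with EGCG, and their median difference was 0.12 on the log2 scale. The medians were 0.07 for complex II, 0.15 for complex III, 0.12 for complex IV and 0.15 for complex V. With 1 library left out they ranged from 0.03 to 0.16, 0.09 to 0.19, 0.11 to 0.19 and 0.10 to 0.17 in the same order. Over the members that share under 10% of their sequence words with other genes, complexes IV and V each had a median of 0.06. Over all 14682 tested genes the median was 0.0031 and 50.6% were higher with EGCG. A difference of similar size lay between the 2 control libraries, since the median member was higher in control replicate 2 than in control replicate 1 by 0.11. With control replicate 1 left out the members had a median of 0.09, with control replicate 2 left out 0.18, and the median was 0.07 over the 24 members that share under 10% of their sequence words with other genes. Control replicate 1 was the lowest of the 4 libraries for 31 members, against 29.3% of all tested genes.

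The files hold the number of reads counted on each gene, and the libraries had between 17767318 and 18390385 counts. Levels are given below as CPM, the usual depth-scaled counts, after TMM scaling. At an adjusted p under 0.05, 2 of all tested genes were higher and 20 were lower with EGCG. Control replicate 1 stood apart from both EGCG libraries more than control replicate 2 did. The chi-square statistic per gene was 14.4 and 11.2 between control replicate 1 and the EGCG libraries, compared with 6.90 and 6.14 for control replicate 2. It was 6.25 between the controls and 6.07 between the EGCG libraries. The markers of the Gr-1 population were present, as 8 of 8 were tested and their summed level was 44683 CPM in control replicate 1 and 54491 to 62906 CPM in the other libraries. Markers of other cells were also present. The summed level was 303 to 349 CPM for 4 B cell markers, 82.5 to 100.2 CPM for T cell markers, 142 to 190.2 CPM for erythroid markers and 249 to 310.1 CPM for macrophage markers, and no marker passed the adjusted threshold. No marker of these lists was at 0 in all libraries. The Gr-1, B cell, T cell and erythroid sums were lowest in control replicate 1, as were most members, and their part in the members' values was not tested. In bulk RNA, fewer cells of a type and less RNA per cell cannot be told apart.

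**Figure D1:**
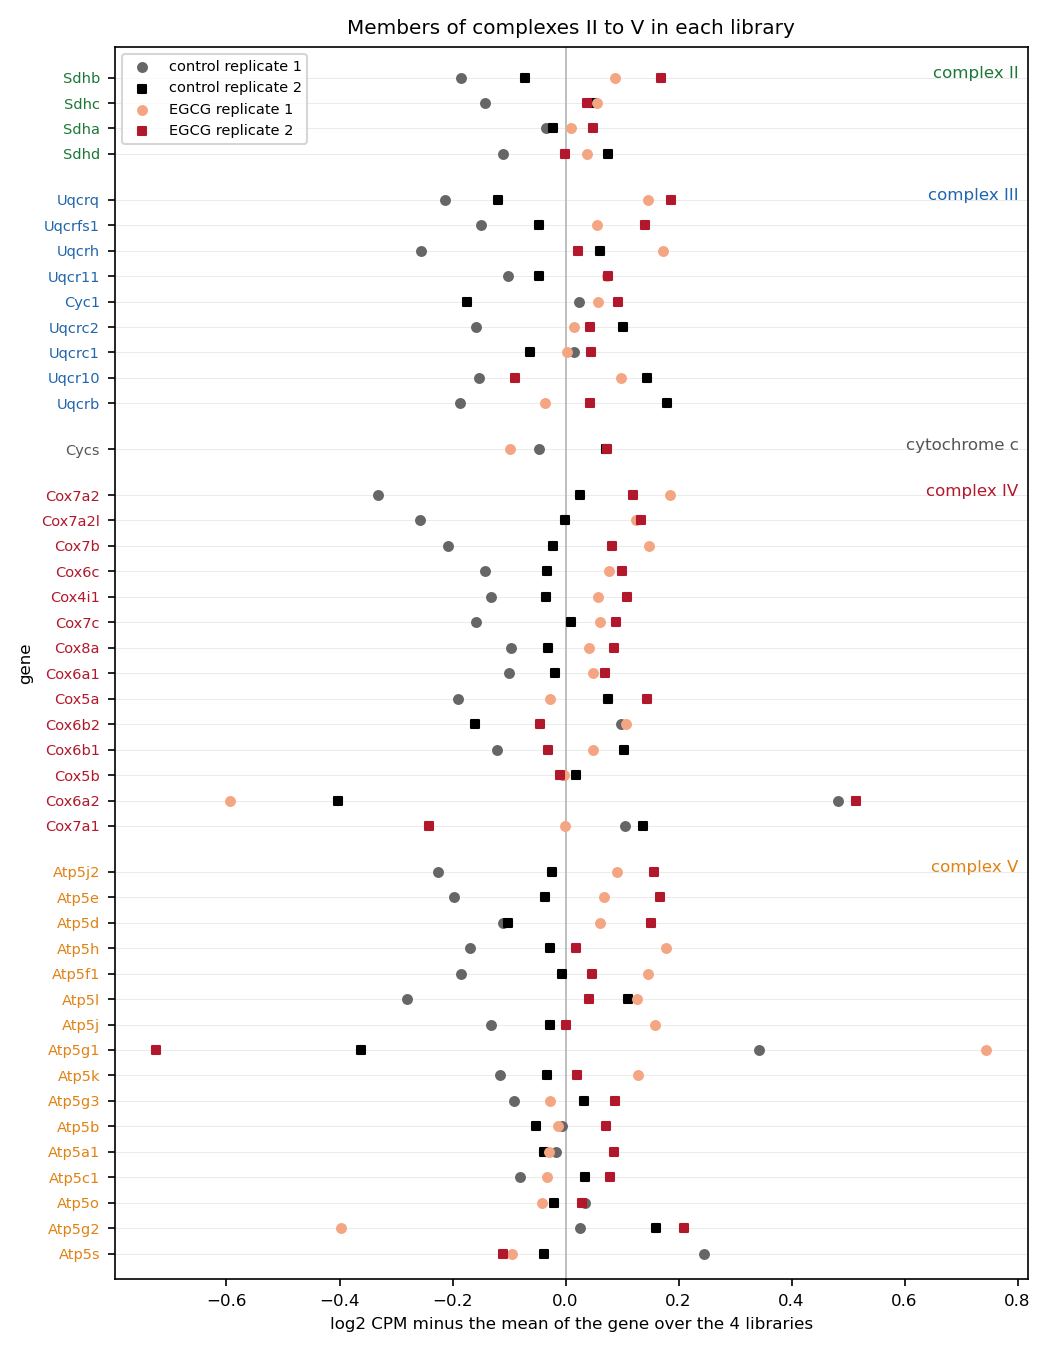
Level of each of the 44 tested members in each library, as log2 CPM minus the gene's mean over the 4 libraries (x axis), with 1 row per gene, grouped by complex (y axis). Control replicate 1 was the lowest of the 4 libraries for 31 members, compared with 29.3% of all tested genes.

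Promoter sequence was examined because nuclear respiratory genes are known as targets of the transcription factors NRF1, NRF2 (GABP, an ETS factor) and YY1. The windows came from RefSeq (GRCm38.p6), which matched 37 of the 48 members, 35 of them tested, and covered the 250 bases before each start. The motifs CGCANGCGC for NRF1, CCGGAAG for ETS factors and GCCATNTT for YY1 were searched on both strands. They were chosen after the data had been seen and may overlap one another. NRF1 letters were found in 9 of the 35 tested members (25.7%), counting any window of a member, and in 5.19% of 32841 promoters. ETS letters were likewise found in 9 members (25.7%) and in 6.91% of promoters, and YY1 letters in 1 (2.86%) and in 3.91%. The promoters were counted singly and were not limited to tested genes, so the shares of members and of promoters rest on unlike bases. Among the 9 matched members with an unadjusted p under 0.05, described below, 0 had the NRF1 letters and 1, Atp5e, had the ETS letters. Among the other 26 the numbers were 9 and 8. This contrast was not tested. It rests on a split by unadjusted p, and the members under that limit changed when a library was left out. The windows were also placed differently. Among the 9, those of Cox7a2l, Atp5d, Atp5f1 and Atp5j2 lay wholly inside the gene as GENCODE places its start. Among the other 26, this held for Atp5g2 and for the second window of Atp5j. For 5 members a stretch of the window is shown 5′ to 3′, with capitals marking the NRF1 and ETS letters. Each stretch stops at the RefSeq or the GENCODE start, whichever comes first. An NRF1 match of Sdha and the ETS match of Cox6a1 lie in the part of the window that is not shown, and the Sdhd stretch stops at the RefSeq start, short of the GENCODE start. Sdha and Sdhd show the NRF1 letters in complex II. Sdhb is the complex II member with the smallest p and has none of the letters. Cox6a1 has the NRF1 letters more than once, and Atp5e is the member with the ETS letters named above.
Sdha (chr13:74350281-74350490, minus strand): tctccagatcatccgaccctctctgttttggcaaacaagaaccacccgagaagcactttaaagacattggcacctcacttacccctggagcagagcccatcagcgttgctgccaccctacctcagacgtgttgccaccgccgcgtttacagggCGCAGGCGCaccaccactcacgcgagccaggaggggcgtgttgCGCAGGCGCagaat
Sdhb (chr4:140961021-140961202, plus strand): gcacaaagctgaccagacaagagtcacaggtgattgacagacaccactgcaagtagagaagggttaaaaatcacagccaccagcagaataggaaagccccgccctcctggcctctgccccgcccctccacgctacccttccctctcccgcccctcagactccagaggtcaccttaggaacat
Sdhd (chr9:50603850-50604099, minus strand): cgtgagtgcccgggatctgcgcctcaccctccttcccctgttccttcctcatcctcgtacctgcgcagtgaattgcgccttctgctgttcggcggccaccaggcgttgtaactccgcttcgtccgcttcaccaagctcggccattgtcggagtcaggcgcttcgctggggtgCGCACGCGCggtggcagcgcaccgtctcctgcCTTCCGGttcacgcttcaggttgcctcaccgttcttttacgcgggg
Cox6a1 (chr5:115348982-115349208, minus strand): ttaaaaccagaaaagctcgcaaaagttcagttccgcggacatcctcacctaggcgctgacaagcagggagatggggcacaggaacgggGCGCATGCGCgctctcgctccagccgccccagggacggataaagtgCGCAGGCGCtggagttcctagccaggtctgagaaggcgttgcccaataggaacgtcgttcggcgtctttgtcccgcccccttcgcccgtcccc
Atp5e (chr2:174464106-174464351, minus strand): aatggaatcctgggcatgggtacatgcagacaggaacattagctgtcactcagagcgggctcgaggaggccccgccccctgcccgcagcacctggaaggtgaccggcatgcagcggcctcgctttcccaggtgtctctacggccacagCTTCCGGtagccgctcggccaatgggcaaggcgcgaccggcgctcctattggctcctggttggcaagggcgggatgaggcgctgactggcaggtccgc

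A match describes the letters in a window and is not a binding site, and a missing match says only that these letters are absent from it.

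No member passed an adjusted p under 0.05 by edgeR's quasi-likelihood test, where p was adjusted by the Benjamini-Hochberg method across the whole table. Among all tested genes 0.0136% passed as higher, 0.136% as lower and 0.150% in either direction. DESeq2 and edgeR's robust fit, which called 0.0954% of all tested genes as higher, edgeR's newer fit (0.0409%) and library-size scaling (0.109%) also called 0 members. At an unadjusted p under 0.05, 12 members were higher with EGCG, against 5.22% of all tested genes, and 0 were lower, against 7.02%. The 12 comprised 1 member of complex II, 2 of complex III, 5 of complex IV and 4 of complex V. In 21 members both EGCG libraries lay above both control libraries (21.5% of all tested genes), and in 2, Cox7a1 and Atp5s, both lay below (21.2% of all tested genes). These 2 were weakly expressed, at under 3 CPM. Without control replicate 1, the members with an unadjusted p under 0.05 numbered 4 (Sdhb, Cyc1, Uqcrq and Atp5d), against 2.84% of all tested genes, 0 passed the adjusted threshold, against 0.0817%, and 31 were higher, against 51.4%. Without control replicate 2, 17 members had an unadjusted p under 0.05, against 7.30%, 5 passed the adjusted threshold, against 1.35%, and 37 were higher, against 50.6%. The groups did not overlap, with EGCG higher, in 25 members without control replicate 1 (34.2% of all tested genes) and in 32 without control replicate 2 (37.1%). Without EGCG replicate 1 the members with an unadjusted p under 0.05 numbered 8, against 4.12%, and without EGCG replicate 2 they numbered 9, against 3.88%, and 0 passed the adjusted threshold in either case, against 0.136% and 0.245%. With library-size scaling 7 had an unadjusted p under 0.05, against 3.21%. With 2 libraries in each group, an exact permutation test of a single gene cannot give a p under 0.333.

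**Figure D2:**
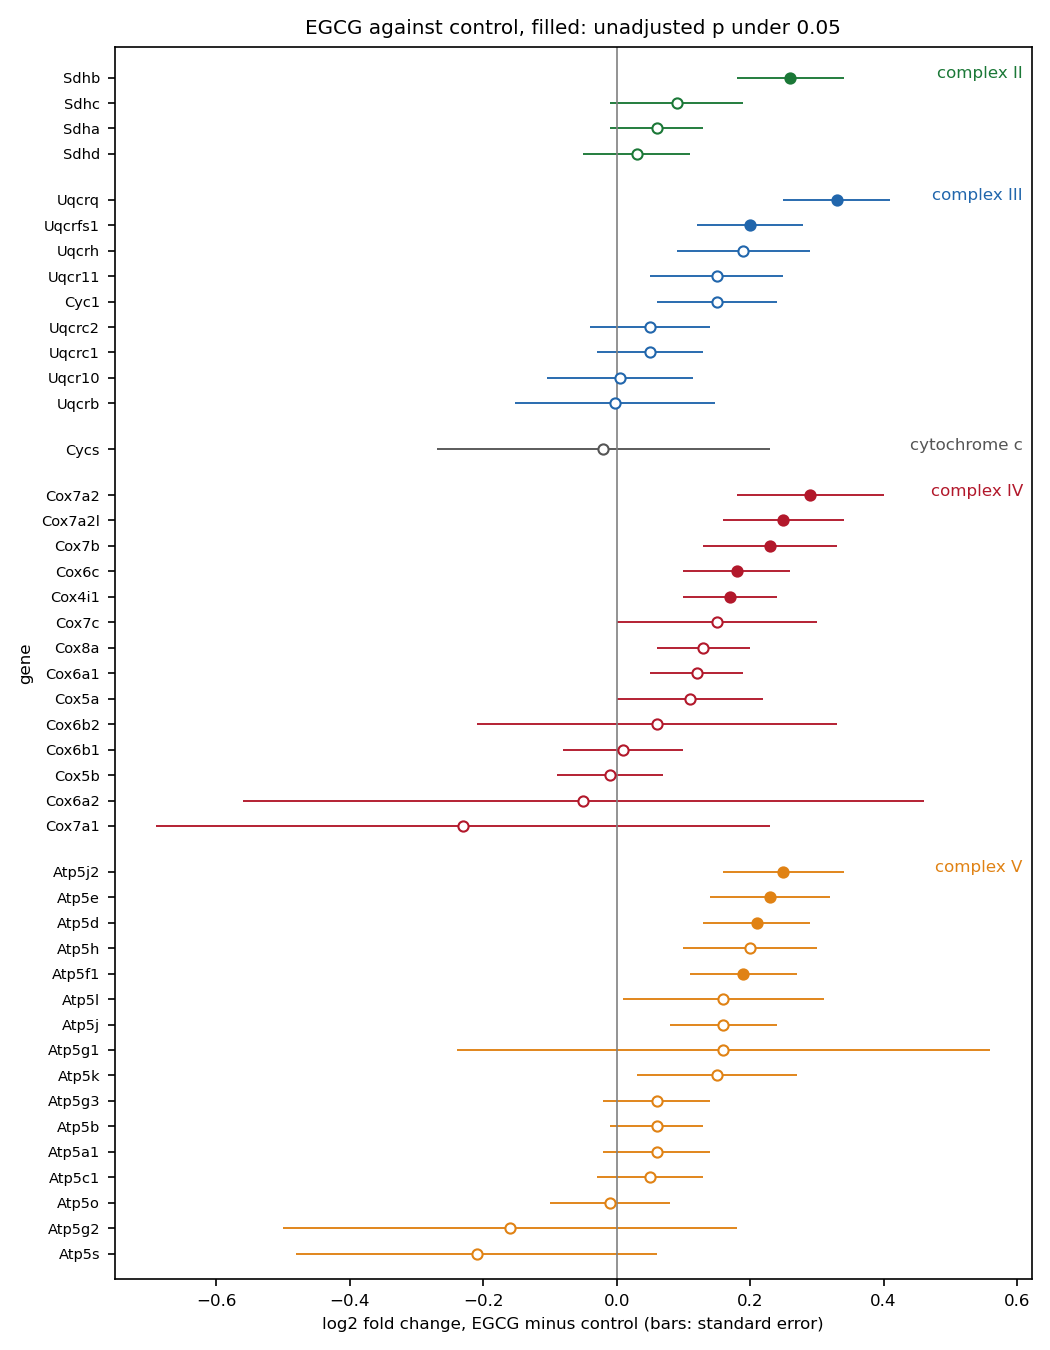
Log2 fold change of each tested member, EGCG minus control (x axis), with bars for the standard error and 1 row per gene, grouped by complex (y axis). Filled points are the 12 members with an unadjusted p under 0.05, all of them higher with EGCG.

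Complex II oxidizes succinate to fumarate and hands the electrons to ubiquinone. Sdhb, the iron-sulfur subunit, lies at chr4:140961203-140979193 (GRCm38, as are all positions below). Its level was 77.9 and 84.3 CPM in the control libraries and 94.1 and 99.6 CPM in the EGCG libraries. Both EGCG libraries were above both controls, and the log2 fold change was 0.26 (SE 0.08), with an unadjusted p of 0.00617 and an adjusted p of 0.228 by edgeR's quasi-likelihood test. Sdha, the flavoprotein that binds succinate, had the highest CPM of the complex, a value not divided by length. It measured 124 and 126 CPM in the controls and 128 and 132 CPM with EGCG, a log2 fold change of 0.06 (SE 0.07, adjusted p = 0.806). The groups did not overlap, but the gap between the nearest libraries was within the spread seen among replicates. Sdhc and Sdhd anchor the complex in the membrane. Sdhc measured 31.5 and 36.0 CPM in the controls and 36.2 and 35.7 CPM with EGCG, so that control replicate 1 alone was low (log2 fold change 0.09, SE 0.10, adjusted p = 0.763). Sdhd measured 81.0 and 92.2 CPM in the controls and 89.8 and 87.4 CPM with EGCG, with overlapping groups (log2 fold change 0.03, SE 0.08), and the direction turned to -0.05 without control replicate 1. Control replicate 1 was the lowest library for all 4 genes. Sdhb thus had the largest difference of the 4, and whether it differed from its partners was not tested.

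Complex III passes electrons from ubiquinol to cytochrome c, and its small subunits surround a catalytic core. Uqcrq, a small subunit also called the ubiquinone-binding protein QP-C, had the smallest p of all members and lies at chr11:53427922-53430831. It measured 60.2 and 64.2 CPM in the controls and 77.2 and 79.4 CPM with EGCG, and the 2 pairs were well separated. The log2 fold change was 0.33 (SE 0.08), or 1.26-fold, with an adjusted p of 0.122 by edgeR's quasi-likelihood test, and over the alternative settings that p ranged from 0.0150 to 0.650. Uqcrfs1, the Rieske iron-sulfur protein, measured 59.1 and 63.5 CPM in the controls and 68.2 and 72.3 CPM with EGCG. The groups did not overlap here either, and the log2 fold change was 0.20 (SE 0.08, adjusted p = 0.368). Uqcrh, the acidic hinge protein, measured 58.2 and 72.4 CPM in the controls and 78.3 and 70.5 CPM with EGCG. Its control replicate 1 was low and the other 3 libraries overlapped (log2 fold change 0.19, SE 0.10, adjusted p = 0.490). When control replicate 1 was left out Uqcrh was at 0.04, and when control replicate 2 was left out it was at 0.36 (adjusted p = 0.0274 by edgeR's quasi-likelihood test). Uqcrc1 is a core protein and the complex III member with the highest CPM. It measured 105 and 99.4 CPM in the controls and 104 and 107 CPM with EGCG, with overlapping groups (log2 fold change 0.05, SE 0.08). With a library left out Uqcrc1 ranged from 0.01 to 0.09. Cyc1 encodes cytochrome c1, the heme subunit, and its low library was control replicate 2. It measured 51.8 and 45.1 CPM in the controls and 52.9 and 54.3 CPM with EGCG, a log2 fold change of 0.15. Its log2 fold change was 0.25 when control replicate 1 was left out and 0.05 when control replicate 2 was. The other 4 members, Uqcrc2, Uqcr10, Uqcr11 and Uqcrb, had log2 fold changes from -0.0028 to 0.15. Directions turned for Uqcrc2 (-0.07) and Uqcr10 (-0.13) without control replicate 1, and for Uqcrb (0.19) without control replicate 2. Reads of Uqcrb are uncertain, since 34.8% of the 31-base words of its transcripts also occur in transcripts of other genes.

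Cytochrome c carries electrons from complex III to complex IV. Cycs, at chr6:50562563-50566538, was counted only 48 and 51 times in the controls and 46 and 51 times with EGCG, or 2.54 to 2.86 CPM. The groups overlapped, and the log2 fold change was -0.02 with an SE of 0.25. Its level is uncertain, since 29.4% of its words occur in other transcripts.

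Complex IV (cytochrome c oxidase) reduces oxygen to water. Its catalytic subunits are mitochondrially encoded, and the nuclear subunits counted here stabilize and regulate it. Cox7a2, at chr9:79755361-79759878, is the non-muscle form of subunit VIIa. It measured 43.2 and 55.3 CPM in the controls and 61.7 and 59.0 CPM with EGCG. Both EGCG libraries were higher, and the gap between the controls was larger than that between control replicate 2 and either EGCG library. The log2 fold change was 0.29 (SE 0.11, adjusted p = 0.289 by edgeR's quasi-likelihood test), falling between 0.13, the value when control replicate 1 was left out, and 0.49 (adjusted p = 0.00144), the value when control replicate 2 was. Cox7a2l, a related protein that links complexes III and IV into supercomplexes, lies at chr17:83501918-83517330, and 16.6% of its words occur in other transcripts. It measured 103 and 122 CPM in the controls and 134 CPM in each EGCG library, again with control replicate 1 the farthest apart. The log2 fold change was 0.25 (SE 0.09, adjusted p = 0.270). It was 0.13 (adjusted p = 0.897) with control replicate 1 left out and 0.39 (adjusted p = 0.00696) with control replicate 2 left out. Cox7b, at chrX:106015700-106022450, measured 26.0 and 29.6 CPM in the controls and 33.3 and 31.8 CPM with EGCG, with no overlap (log2 fold change 0.23, SE 0.10, adjusted p = 0.393, or 0.14 without control replicate 1). Cox4i1, at chr8:120668222-120674207, is the common form of subunit IV and had the highest CPM of the complex. It measured 201 and 215 CPM in the controls and 229 and 237 CPM with EGCG, with no overlap (log2 fold change 0.17, SE 0.07, adjusted p = 0.398). Cox6c was the fifth with an unadjusted p under 0.05, at a log2 fold change of 0.18 (SE 0.08, unadjusted p = 0.0445). The exons of Cox4i1 overlap Emc8, and those of Cox6c overlap Vps13b, on the opposite strand, and the counting ignored strand. Of the words of Cox4i1 and Cox6c, 12.9% and 11.9% occur in other transcripts. Cox5a was at 0.11, and at -0.01 without control replicate 1. Cox6b1 and Cox5b were at 0.01 and -0.01. Cox6b1 measured 79.6 and 93.0 CPM in the controls and 89.5 and 84.7 CPM with EGCG, and its direction turned with library-size scaling (-0.02).

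Several complex IV subunits have a second form that is known from muscle, lung or testis. The ubiquitous forms dominated in these cells, and the levels below are medians over the 4 libraries in CPM per kilobase of exon. Cox4i1 stood at 143 and Cox4i2, the lung form, at 0.0710. Cox6a1 stood at 209 and Cox6a2, the muscle form, at 1.05. Cox6b1 stood at 123 and Cox6b2, the testis form, at 2.07. Thus each tissue form was at most a small share of its pair. In subunit VIIa, Cox7a2 stood at 60.5, Cox7a2l at 86.6 and the muscle form Cox7a1 at 1.28. Cox8a stood at 205, while Cox8b had 1 count in 1 library and Cox8c had 0 counts. Cox7b stood at 25.3, and Cox7b2 had 0 counts. A count of 0 in a library allows up to 3 counts, and this covers counting error only. Cox4i2, with 1 or 2 counts per library, Cox7b2, Cox8b and Cox8c were the 4 members that could not be tested. Of the tested forms, Cox6a1 measured 135 and 143 CPM in the controls and 150.1 and 152 CPM with EGCG (log2 fold change 0.12, SE 0.07, adjusted p = 0.562). Cox8a measured 118 and 123 CPM in the controls and 129.8 and 134 CPM with EGCG (log2 fold change 0.13, SE 0.07, adjusted p = 0.531). In both genes the groups did not overlap, by small margins, and both were at 0.05 when fold changes were corrected for gene length. Cox6a2 was counted 17 and 9 times in the controls and 8 and 17 times with EGCG, Cox7a1 13 and 13 times and 12 and 10 times, and Cox6b2 44 and 36 times and 44 and 39 times. No difference was detected in these genes, where the SEs of the log2 fold change were 0.51 for Cox6a2, 0.46 for Cox7a1 and 0.27 for Cox6b2.

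Complex V consists of the F1 head, where ATP is made, and a membrane part joined to it by a stator stalk. Atp5b, the catalytic β subunit, had the highest CPM of all members. It measured 383 and 371 CPM in the controls and 381 and 404 CPM with EGCG, with overlapping groups (log2 fold change 0.06, SE 0.07, adjusted p = 0.808). Its value ranged from 0.01 to 0.10 with a library left out. Atp5a1, the α subunit, measured 306 and 301 CPM in the controls and 303 and 329 CPM with EGCG, with overlap as well (log2 fold change 0.06). The small subunits of the central stalk were the F1 members with larger differences. Atp5d, the δ subunit, lies at chr10:80138632-80145818 and measured 72.2 and 72.6 CPM in the controls and 81.3 and 86.5 CPM with EGCG. The controls were close together and both EGCG libraries were higher (log2 fold change 0.21, SE 0.08, adjusted p = 0.299 by edgeR's quasi-likelihood test). It was the complex V member that kept an unadjusted p under 0.05 without control replicate 1. Atp5e, the ε subunit, lies at chr2:174461072-174464105 and measured 54.7 and 61.1 CPM in the controls and 65.6 and 70.3 CPM with EGCG. The groups did not overlap (log2 fold change 0.23, SE 0.09, adjusted p = 0.308), and its promoter window is among those printed above. In the stator and membrane part, Atp5j2, the f subunit, lies at chr5:145183698-145192062 and measured 50.9 and 58.6 CPM in the controls and 63.4 and 66.4 CPM with EGCG. The groups did not overlap (log2 fold change 0.25, SE 0.09, adjusted p = 0.295), and the value was 0.15 (adjusted p = 0.888) with control replicate 1 left out and 0.35 (adjusted p = 0.0384) with control replicate 2 left out. Atp5f1, the b subunit of the stator, measured 175 and 199 CPM in the controls and 221 and 206 CPM with EGCG (log2 fold change 0.19, SE 0.08, adjusted p = 0.376, or 0.11 without control replicate 1), and its exons overlap Wdr77 on the opposite strand. Of the words of Atp5f1, 17.7% occur in other transcripts.

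The c subunit of the membrane ring is encoded by several genes that differ only in the targeting sequence of the precursor. Atp5g3 supplied nearly all of its counts, at a median of 33.1 CPM per kilobase, compared with 0.926 for Atp5g2 and 0.405 for Atp5g1. Atp5g3 measured 67.6 and 73.6 CPM in the controls and 70.6 and 76.5 CPM with EGCG, with overlapping groups (log2 fold change 0.06, SE 0.08). With a library left out its value ranged from 0.00031 to 0.12. Atp5g1 was counted 45 and 27 times in the controls and 59 and 21 times with EGCG, so that the 2 EGCG libraries were the highest and the lowest. Atp5g2 was counted 27 and 29 times in the controls and 20 and 30 times with EGCG, and 40.2% of its words occur in other transcripts. Atp5s, a coupling factor rather than a core subunit, was at -0.21 (SE 0.27), and between -0.34 and -0.06 with a library left out. The remaining members, Atp5c1, Atp5h, Atp5j, Atp5k, Atp5l and Atp5o, had log2 fold changes from -0.01 to 0.20. Of these, Atp5c1 (-0.01), Atp5l (-0.02) and Atp5o (0.02) turned in direction without control replicate 1. Reads of Atp5o are uncertain, since 49.6% of its words occur in other transcripts and its exons overlap other genes.

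The complexes were then compared by the summed level of their tested members. Complex II summed to 315 and 338 CPM in the controls and 348 and 355 CPM with EGCG. Complex III summed to 463 and 498 CPM in the controls and 528 and 529 CPM with EGCG. Complex IV summed to 889.7 and 979 CPM in the controls and 1027 and 1038 CPM with EGCG. Each of these sums had both EGCG libraries above both controls, and in each of complexes II, III and IV the gap between the controls was larger than that between control replicate 2 and either EGCG library. Complex V summed to 1380.3 and 1425 CPM in the controls and 1489 and 1533 CPM with EGCG, in the same order, and there the gap between the controls was the smaller one. The log2 ratios of the group means were 0.11, 0.14, 0.14 and 0.11 for complexes II, III, IV and V, beside 0.12 for all members. The share of each complex in the members' total hardly varied. Complex II held 10.3% to 10.4% of it, complex III 15.2% to 15.6%, complex IV 29.2% to 30.2% and complex V 43.9% to 45.2%. The highest share of complex V and the lowest of complex IV were both in control replicate 1.

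The order of the complexes by median was not stable. The spread of a complex's median between replicates (SD within groups) was 0.070 for complex II, 0.054 for complex III, 0.061 for complex IV and 0.037 for complex V, compared with differences between complexes of at most 0.08 in the main analysis. Complex II had the lowest median in the main analysis, without control replicate 1 (0.03) and without either EGCG library (0.08). Without control replicate 2, complexes II and V both stood at 0.16. Among members sharing under 10% of their words, complexes IV and V (0.06) lay below complex II (0.07), and complex III was at 0.17. With a correction for gene length the medians were 0.08, 0.08, 0.07 and 0.12 for complexes II, III, IV and V, and complex IV was then lowest. Within complexes, medians were also taken by part. In complex III the core and redox subunits had a median of 0.10 and the small subunits of 0.15. This order turned when control replicate 1 was left out (0.12 and 0.04), when EGCG replicate 1 was left out (0.12 and 0.11) and with the length correction (0.10 and 0.08). In complex V the F1 subunits had a median of 0.06 and the stator and membrane subunits of 0.16. Leaving out control replicate 1 gave 0.09 and 0.11, leaving out EGCG replicate 1 gave 0.11 for both parts, leaving out control replicate 2 gave 0.11 and 0.20, and leaving out EGCG replicate 2 gave 0.01 and 0.21. In complex IV the median was 0.15 once the tissue forms were left out, and 0.10 to 0.23 with a library left out as well. These contrasts between groups of genes have no test, since members are not replicates of a condition.

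**Figure D3:**
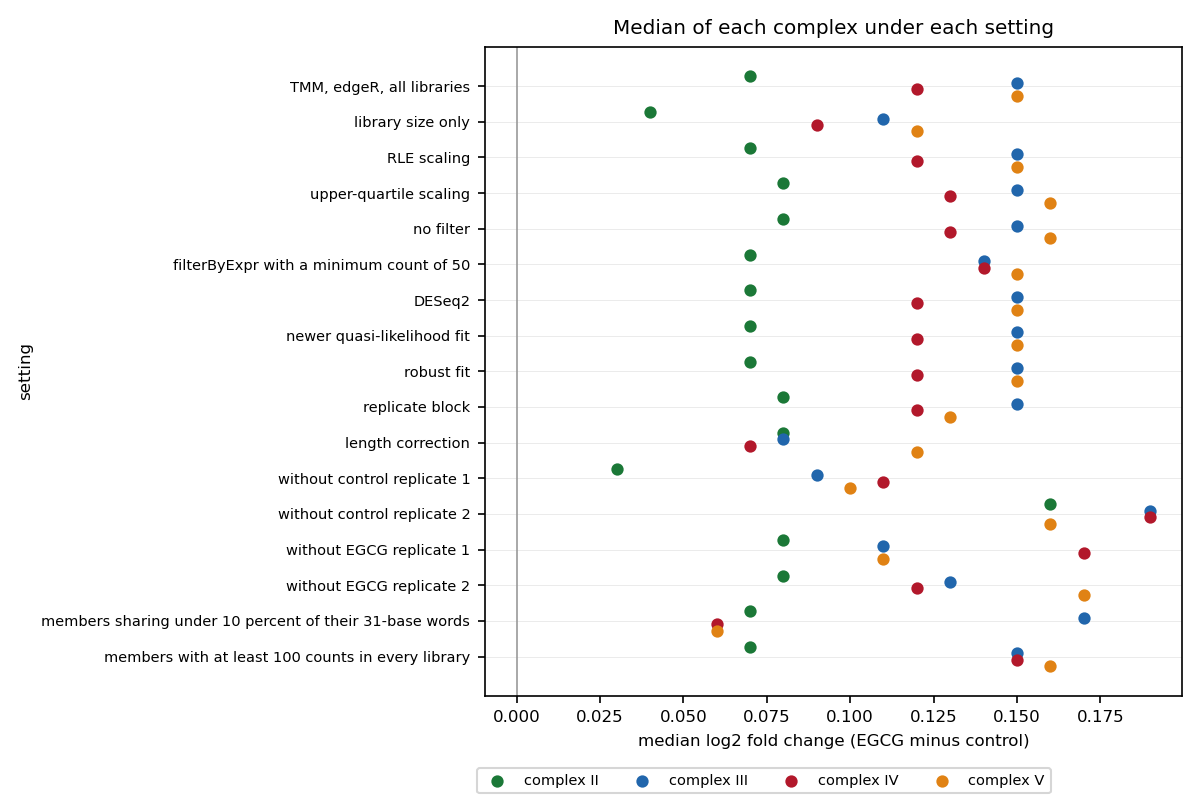
Median log2 fold change, EGCG minus control (x axis), of the tested members of each complex under each setting (y axis), with colors for the complexes. Complex II was at 0.07 in the main analysis, at 0.03 without control replicate 1 and at 0.16 without control replicate 2.

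The members are short genes, with a median exonic length of 1793.5 bases compared with 3814.5 bases for all tested genes, and across all genes the fold change moved with length. The Spearman correlation of log2 fold change with exonic length was -0.286 over 14666 genes. Among the 44 members it was 0.111. Genes are not independent replicates, and these values are given as a description. The 18 members under 1500 bases had a median log2 fold change of 0.14, compared with 0.08 for the 1693 tested genes between 535 and 1478 bases, the range of these members. The 12 members of 3000 bases or more had a median of 0.12, compared with -0.00018 for the 5291 genes between 3130 and 6443 bases. Whether the distance from genes of like length differed between short and long members was not tested. With the length correction the median of all members was 0.08 and that of all tested genes was 0.03. In that fit 33 members were higher, against 56.2% of all tested genes, and 9 had an unadjusted p under 0.05 and were higher, against 5.62%.

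**Figure D4:**
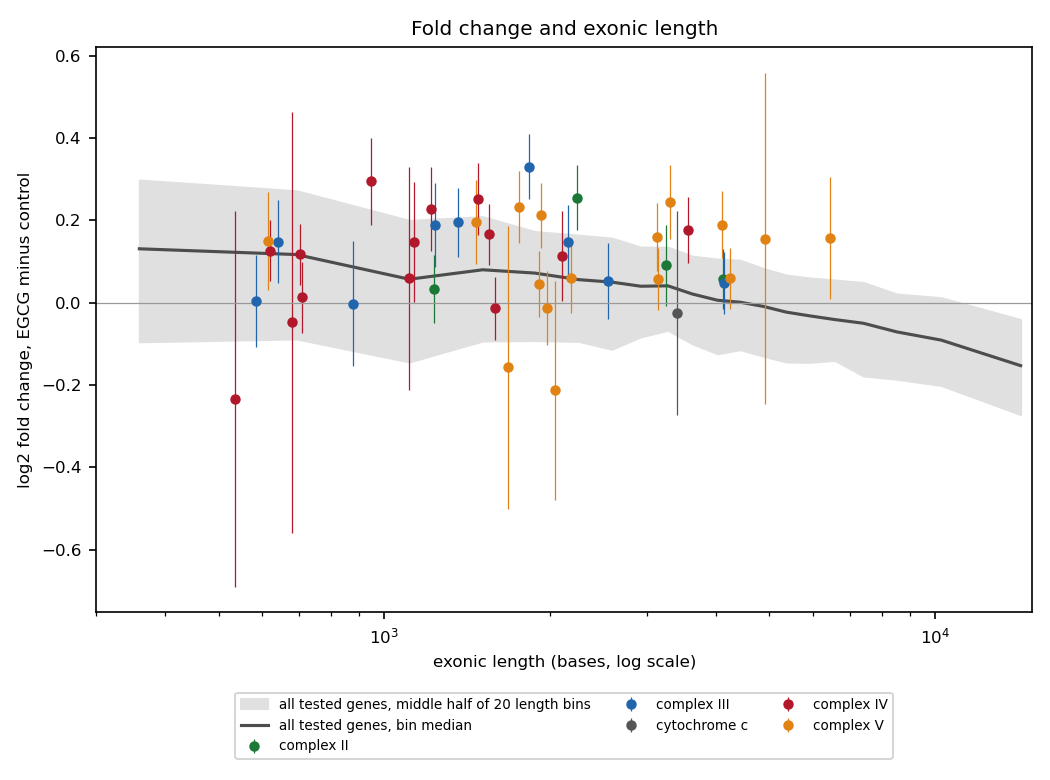
Log2 fold change of each tested member, EGCG minus control (y axis), against exonic length in bases on a log scale (x axis), with bars for the standard error. The line and the band give the median and the middle 50% of all tested genes in 20 bins of length, and the members of 3000 bases or more had a median of 0.12.

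Assembly factors insert the cofactors and subunits of these complexes. Of the 35 tested assembly factors, 20 were higher with EGCG (57.1%, against 50.6% of all tested genes), the median was 0.05, and 0 passed the adjusted threshold by edgeR's quasi-likelihood test. Leaving out control replicate 1 gave a median of 0.02 and leaving out control replicate 2 gave 0.13. Coa3, which acts early in complex IV assembly on the mitochondrially encoded Cox1, measured 22.0 and 22.8 CPM in the controls and 29.3 and 29.4 CPM with EGCG. The 2 pairs were far apart compared with the spread inside each (log2 fold change 0.39, SE 0.10, adjusted p = 0.136). Coa6, a copper delivery factor for complex IV, measured 8.82 and 10.7 CPM in the controls and 13.5 and 13.7 CPM with EGCG (log2 fold change 0.48, SE 0.14, adjusted p = 0.217). Coa5 had a log2 fold change of 0.16 (SE 0.08, adjusted p = 0.427). Complex I, the remaining proton-pumping complex that feeds the chain, had a median of 0.19 over 36 nuclear subunits, of which 34 were higher (94.4%, against 50.6% of all tested genes) and 14 were higher at an unadjusted p under 0.05 (against 5.22%). The complex I median became 0.12 once control replicate 1 was left out and 0.23 once control replicate 2 was. Its members with the smallest p were Ndufv2 (log2 fold change 0.32, SE 0.10, adjusted p = 0.222), Ndufa4, whose protein is now placed in complex IV (0.28, SE 0.10, adjusted p = 0.272), and Ndufb11 (0.26, SE 0.09, adjusted p = 0.275). Without control replicate 1 they were at 0.22, 0.18 and 0.13, and without control replicate 2 at 0.44, 0.39 and 0.40. Of the 8 regulators of nuclear respiratory genes tested, 5 were higher, and the median was 0.04. At an unadjusted p under 0.05 there were 0 in either direction, against 5.22% of all tested genes higher and 7.02% lower. The smallest p belonged to Pprc1, a PGC-1-related coactivator (log2 fold change -0.29, SE 0.14, adjusted p = 0.453), Gabpb1, a subunit of GABP (0.19, SE 0.09, adjusted p = 0.461), and Yy1 (0.13, SE 0.07, adjusted p = 0.508). Pprc1 was at -0.03 and Gabpb1 at 0.10 without control replicate 1, and at -0.49 and 0.29 without control replicate 2. The regulators' median was 0.12 with the length correction, 0.08 without control replicate 2, 0.09 without EGCG replicate 1 and 0.02 without EGCG replicate 2, and 5 of 8 higher (62.5%) stood against 50.6% of all tested genes.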

How the data were processed

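RNA-seq was analysed for 2 control and 2 EGCG libraries, grouped by their labels. The authors aligned reads to GRCm38 with STAR 2.6.0c and deposited whole-number counts per gene, made with featureCounts 1.6.2 (Ensembl release 91, strand ignored) and not normalized. The submitters' processing notes also name bcl2fastq 1.8.4. There were 0 columns of other samples and 0 rows without a gene.

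From the counts, genes were filtered with filterByExpr (minimum count of 10), scaled by TMM and tested with edgeR 4.0.16 (legacy quasi-likelihood test, no block, R 4.3.3), with Benjamini-Hochberg adjustment over 14682 genes and a threshold of 0.05. The test was checked on simulated data. Standard errors are the log2 fold change over the root of F. Positions, exonic lengths and shared 31-base words came from GENCODE M21 (GRCm38), and promoters from RefSeq (GRCm38.p6).

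The members and lists were chosen with earlier results of these data known. Named in full are, per complex, the 3 members with the smallest p and the one with the highest CPM, Cycs, the tissue isoform pairs, and the 3 genes of each other list with the smallest p. Members with an unadjusted p under 0.05, Sdhd, Cyc1, Cox5b, Atp5a1, Atp5s and Uqcrb were added after their values had been seen. Alternatives were other scalings and filters, DESeq2 1.42.0, other edgeR fits, a replicate block, a length correction (loess span 0.4) and leaving out each library.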

Additional observations from a re-analysis of the deposited data

How the results depend on the processing

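When 1 library was left out, the lone library of a group was assumed to vary like the other group. Over all tested genes the number past the adjusted threshold ranged from 12 to 198 higher and from 73 to 342 lower, compared with 2 and 20 in the main analysis. The number higher was 16 with library size only, 0 without a filter, 1 with a minimum count of 50, 14 with DESeq2, 6 with the newer fit and 14 with the robust fit. The number lower was 135 with library size only, 9 with upper-quartile scaling, 0 without a filter, 9 with a minimum count of 50, 54 with DESeq2, 49 with the robust fit and 3 with the length correction. The members past the threshold ranged from 0 to 5 with a library left out. The 5, reached without control replicate 2, were Uqcrh, Uqcrq, Cox7a2, Cox7a2l and Atp5j2. They were 0 under the other settings. The members higher at an unadjusted p under 0.05 numbered 7 with library size only, against 12 in the main analysis, and 4 to 17 with a library left out. The medians with a library left out ranged from 0.09 to 0.18 for all members, 0.03 to 0.16 for complex II, 0.09 to 0.19 for complex III, 0.11 to 0.19 for complex IV and 0.10 to 0.17 for complex V. The complex III median was 0.08 with the length correction. In 2 alternatives chosen after the data had been seen, members that share under 10% of their words gave medians of 0.07 for all members (24 members, 0.12 in the main analysis), 0.07 for complex II, 0.17 for complex III, 0.06 for complex IV and 0.06 for complex V, and members with at least 100 counts in every library left the medians within the replicate spread. The cause of these movements was not tested.

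The replicate numbers were entered as a block, but 2 pairs do not establish a pairing, and the correlation of deviations between libraries of the same number was 0.0336. With the replicate block 6 genes were higher past the threshold, 24 were lower and 0 members passed, and no adjusted call on a member changed.

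Some directions turned. Cox6b1 was at -0.02 with library size only and -0.05 with the length correction. With a library left out, the log2 fold change ranged from -0.09 to 0.13 for Cox6b1, -0.76 to 0.71 for Atp5g1, -0.49 to 0.12 for Atp5g2, -0.70 to 0.46 for Cox6a2, -0.06 to 0.20 for Cox6b2, -0.11 to 0.06 for Cycs and -0.21 to 0.50 for mt-Atp6, and the median of the mitochondrially encoded partners from -0.21 to 0.40. Of the 44 tested members, 16 turned under at least 1 setting, and 11 of them averaged 10 CPM or more. With a library left out, Sdhd turned to -0.05, Uqcrc2 to -0.07, Uqcr10 to -0.13, Uqcrb to 0.19, Cox5a to -0.01, Atp5c1 to -0.01, Atp5l to -0.02 and Atp5o to 0.02, and Atp5a1 and Cox5b turned within 0.01 of 0. The median of complex I ranged from 0.12 to 0.23, that of the ribosomal protein genes from 0.08 to 0.21 and that of the assembly factors from 0.02 to 0.13. Sequence shared with other genes (20 of 44 tested members at 10% or more of words) and exons overlapping an opposite-strand gene (12 of 44) limit single members.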

Other observations

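The mitochondrially encoded partners of these complexes were counted in the same libraries. The median of the 6 genes was 0.19, and 6 were higher with EGCG, against 50.6% of all tested genes. mt-Co2, mt-Co3, mt-Atp6 and mt-Atp8 were at 0.56 to 16.8 CPM, far below mt-Co1 and mt-Cytb. These low genes make up most of the 6, so the median and the number higher rest largely on few counts. Whether their counts reflect transcript levels was not tested. mt-Co1, the catalytic subunit of complex IV, measured 3237 and 3535 CPM in the controls and 4096 and 3651 CPM with EGCG (log2 fold change 0.19, SE 0.09, adjusted p = 0.405 by edgeR's quasi-likelihood test). mt-Cytb, the heme protein of complex III, measured 857 and 927 CPM in the controls and 1130 and 928 CPM with EGCG (0.21, SE 0.09, adjusted p = 0.403). EGCG replicate 1 was the high library in both genes, and EGCG replicate 2 lay close to control replicate 2. Without EGCG replicate 1 mt-Co1 was at 0.11 and mt-Cytb at 0.06. mt-Atp6 measured 5.97 and 7.55 CPM in the controls and 9.54 and 5.82 CPM with EGCG, with overlapping groups (0.19, SE 0.22, adjusted p = 0.789). Without EGCG replicate 1 the median of the 6 was -0.21, and 2, mt-Co1 and mt-Cytb, were higher. The median was 0.08 with control replicate 1 left out and 0.40 with EGCG replicate 2 left out.

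Of 7 proteins that work beside ATP synthase, 7 were higher with EGCG (against 50.6% of all tested genes), with a median of 0.09, and 0 passed the adjusted threshold by edgeR's quasi-likelihood test. The number higher was 5 with library size only and 6 with the length correction or without control replicate 1, EGCG replicate 1 or EGCG replicate 2, and the median was 0.15 without EGCG replicate 1. Slc25a4, an ADP/ATP carrier, measured 16.5 and 15.3 CPM in the controls and 19.3 and 21.4 CPM with EGCG, without overlap (log2 fold change 0.35, SE 0.12, adjusted p = 0.240). Atpif1, the inhibitor of ATP hydrolysis by the synthase, was at 0.26 (SE 0.12, adjusted p = 0.405), and Usmg5, a small subunit of the synthase dimer, at 0.29 (SE 0.14, adjusted p = 0.423). Both were at 0.11 without control replicate 1, and they were at 0.43 and 0.49 without control replicate 2.

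The cytosolic ribosomal protein genes, taken by symbol as another set of short and abundant genes, had a median of 0.13 over 100 genes, of which 81 were higher (81.0%, against 50.6% of all tested genes). At an unadjusted p under 0.05 by edgeR's quasi-likelihood test, 25 were higher (against 5.22% of all tested genes) and 3 lower (against 7.02%). Both EGCG libraries lay above both controls in 48 (against 21.5%) and below both in 5 (against 21.2%). Leaving out control replicate 1 gave a median of 0.08, and leaving out control replicate 2 gave 0.21. The symbols also took in S6 kinase genes. The smallest p belonged to Rpl10a (log2 fold change -0.47, SE 0.12, adjusted p = 0.128), to the kinase gene Rps6kc1 (-0.32, SE 0.08, adjusted p = 0.132) and to Rps16 (0.45, SE 0.11, adjusted p = 0.132).

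The 8 genes named as pseudogenes of members held 63 and 54 counts in the controls and 78 and 59 counts with EGCG, and 3 of them were tested. Summed markers of macrophages, endothelial cells and platelets went the other way from the members. The macrophage sum was 288 and 310.1 CPM in the controls and 249 and 252 CPM with EGCG. The endothelial sum was 113 and 125 CPM in the controls and 93.6 and 98.0 CPM with EGCG. The megakaryocyte and platelet sum was 36.3 and 39.3 CPM in the controls and 32.4 and 32.0 CPM with EGCG. The part of these markers in the members' values was not tested.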
